A study of Homo sapiens with 8 samples.

Results

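Keratins are the intermediate filament proteins of epithelial cells, and 10 of their genes are described here across 8 tumours: KRT7, KRT8, KRT18 and KRT19, the keratins of simple epithelia; KRT5, KRT6A, KRT15, KRT16 and KRT17, keratins of stratified or activated epithelia; and KRT80, a type II keratin found in many epithelia. They are a list of gene symbols, 10 of the 59050 counted. The rule uses no threshold on a measured value, but the list was drawn up with earlier results of these data known, and the simple and the stratified keratins are treated apart. The tumours were xenografts of H2122, a cell line established from a human lung cancer and grown in RPMI medium. Of these, 4 came from parental cells and 4 from cells in which SMARCA4, which encodes a motor subunit of SWI/SNF chromatin remodellers, was knocked out. All 8 tumours, controls included, had received vehicle. The sources used here do not give the host strain, the site of the graft, the age of the animals, whether the knockout line was 1 clone or a pool, or whether the 4 tumours of a group came from separate animals, so p-values measure the spread between these samples.

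A keratin filament is built from pairs of 1 acidic type I and 1 basic type II protein, and a keratin without a partner is broken down. KRT8 with KRT18 is the first pair made in most epithelia and is typical of glandular cells, where KRT7 (type II) and KRT19 (type I) are added, and adenocarcinomas of the lung commonly carry all of these. KRT5 with KRT14 or KRT15 marks basal cells of stratified epithelia, while KRT6A, KRT16 and KRT17 are made in hair follicles and in skin that is wounded, inflamed or growing fast.

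Library depth was 19785922 to 23191698 gene counts per tumour. SMARCA4 transcripts were at 220, 229, 198 and 235 CPM (counts relative to the TMM-scaled library size) in parental replicates 1 to 4 and at 29.6, 26.2, 22.3 and 31.1 CPM in the knockout replicates, lower in every knockout tumour than in any parental tumour, as labelled (log2 fold change -3.02, SE 0.117). Epithelial tumour markers were present in every tumour. EPCAM stood at 515 CPM ± 58.1 in the parental and 441 CPM ± 5.70 in the knockout tumours (SD, n = 4 each), and CDH1, the adherens junction cadherin, at 164 CPM ± 25.3 and 173 CPM ± 24.3, neither with a call. The EPCAM groups did not overlap, though narrowly, with 445.6 CPM as the highest knockout and 447.1 CPM as the lowest parental value (log2 fold change -0.23, edgeR adjusted p = 0.0943). The lung lineage factor NKX2-1 had no counts in any tumour. Knockout replicate 4 stood apart for KRT5, KRT14 and a few low-count keratins, as described with KRT5 below. Results for KRT5 and KRT14, and the calls of the members, are given with and without this tumour.

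The simple keratins parted into a pair that fell in the knockout tumours and a pair that did not change by the test, and the stratified keratins into 2 genes that rose from a low level and 2 abundant genes without a call. KRT7 fell to 61.2% and KRT19 to 49.6% of the parental level, whereas KRT15 was 2.45-fold and KRT16 2.36-fold higher. KRT8, KRT18, KRT6A, KRT17 and KRT80 did not pass the test, and KRT5 had too few counts to be tested outside 1 tumour. Thus 4 of the 9 keratins tested were called changed at an adjusted p under 0.05 (edgeR quasi-likelihood test, Benjamini-Hochberg adjustment over all 16219 genes tested), against a background of 27.0% of all genes tested, of which 13.0% were higher and 14.1% lower. With so few genes neither the number called nor a class median is a result in itself, and the values below describe single genes. Of 4 simple keratins 0 were called higher and 2 lower, with 2 fold changes above 0 and 2 below (median log2 fold change -0.30). Of 4 tested stratified keratins 2 were called higher and 0 lower, with 3 fold changes above 0 and 1 below (median 0.76). The median of all genes was 0.00. The same 4 keratins were the only members whose groups did not overlap, where 29.3% of all genes tested had groups without overlap (14.0% with the knockout tumours above and 15.3% below). They were also called when any 1 tumour was left out.

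**Figure D1:**
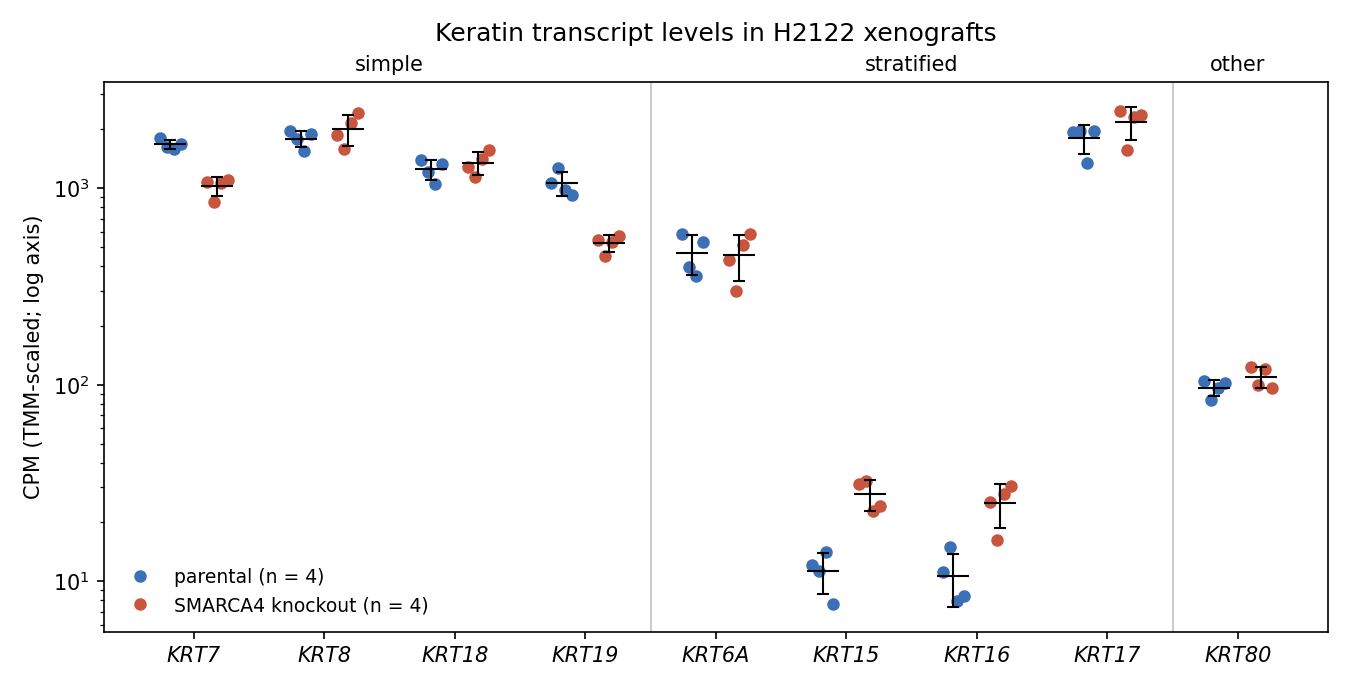
TMM-scaled CPM (log axis) of the 9 tested keratins in each tumour, parental in blue and SMARCA4 knockout in red (n = 4 each), with horizontal lines at the mean and bars of 1 SD. The knockout points of KRT7 and KRT19 lie wholly below the parental points and those of KRT15 and KRT16 wholly above them, while the groups of the other 5 genes overlap.

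KRT7, a type II keratin of ducts, glands and bladder, lies at chr12:52232520-52252186 on the plus strand (GENCODE 29, GRCh38). Its level was 1802, 1626, 1584 and 1688 CPM in parental replicates 1 to 4 and 1081, 851, 1068 and 1097 CPM in the knockout replicates. Every knockout tumour was below every parental tumour, and knockout replicate 2 was the lowest of all. The fold change was -0.71 on the log2 scale (SE 0.0994, 95% interval -0.93 to -0.49, edgeR adjusted p = 0.000333). Exons of KRT7 overlap those of the antisense gene KRT7-AS and of the pseudogene KRT87P on the other strand. The strand setting of the counting is not given in the sources used here, so reads of these genes may not be told apart.

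KRT19, the smallest type I keratin, which lacks the usual tail domain, lies at chr17:41523617-41528308 on the minus strand. It measured 1063, 1273, 977 and 929 CPM in the parental tumours against 544, 454, 535 and 572 CPM in the knockout tumours. The groups did not overlap, and the highest knockout value was well under the lowest parental value. This was the largest fall among the 9 tested members, with a log2 fold change of -1.01 ± 0.116 (SE; 95% interval -1.27 to -0.76, edgeR adjusted p = 8.49e-05). Across the 8 tumours log2 CPM of KRT7 and KRT19 moved together (Pearson r = 0.95), a value that includes the difference between the groups and comes from the same libraries. KRT19 fell further than KRT7, and the per-length ratio of KRT7 to KRT19 was 1.34, 1.01, 1.29 and 1.44 in the parental and 1.57, 1.49, 1.58 and 1.52 in the knockout tumours, all 4 knockout ratios being higher.

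KRT8, the type II partner of the simple epithelial pair, lies at chr12:52897187-52949954 on the minus strand. It stood at 1954, 1780, 1550 and 1879 CPM in the parental and 1860, 1585, 2151 and 2414 CPM in the knockout tumours. The groups overlapped, with the 2 highest values in knockout replicates 3 and 4. The log2 fold change was 0.16 ± 0.131 (SE; 95% interval -0.13 to 0.45, edgeR adjusted p = 0.399), an interval that does not include a fall of the size seen for KRT7.

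KRT18, its type I partner, sits beside KRT8 at chr12:52948871-52952901 on the plus strand, the only type I keratin gene in the type II cluster, and exons of the pair overlap on opposite strands. Its values were 1398, 1209, 1056 and 1328 CPM in the parental and 1286, 1136, 1405 and 1574 CPM in the knockout tumours. The groups overlapped (log2 fold change 0.11, 95% interval -0.15 to 0.38, edgeR adjusted p = 0.528). KRT8 and KRT18 followed each other from tumour to tumour (Pearson r = 0.97 of log2 CPM over the 8 tumours), both being lowest in parental replicate 3 and knockout replicate 2 within their groups. The ratio of KRT8 to KRT18 per kb of transcript was 1.06 ± 0.0275 in the parental and 1.09 ± 0.0498 in the knockout tumours (SD, n = 4 each), with overlapping ranges.

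Among the stratified keratins, KRT15 and KRT16 rose from levels that were low beside the simple keratins. KRT15, a type I keratin of basal cells and of the hair follicle bulge, lies at chr17:41513743-41522529 on the minus strand and ends 1087 bases from KRT19 on the same strand. It measured 12.1, 11.3, 14.1 and 7.70 CPM in parental tumours and 31.3, 32.5, 22.7 and 24.3 CPM in the knockout tumours. The groups did not overlap, and knockout replicate 4 was not the highest. The log2 fold change was 1.29 ± 0.183 (SE; 95% interval 0.89 to 1.70, edgeR adjusted p = 0.000350). The neighbours KRT15 and KRT19 thus moved in opposite directions, and the ratio of KRT19 to KRT15 per kb of transcript went from 368 ± 88.0 in parental to 74.0 ± 17.9 in the knockout tumours (SD, n = 4 each, no overlap).

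KRT16, a type I keratin that pairs with KRT6A in activated epidermis, lies at chr17:41609778-41615899 on the minus strand. It was at 11.2, 14.9, 7.91 and 8.42 CPM in the parental and 25.3, 16.2, 27.9 and 30.4 CPM in the knockout tumours. The groups did not overlap, although knockout replicate 2 lay close to parental replicate 2. The log2 fold change was 1.24 ± 0.229 (SE; 95% interval 0.73 to 1.74, edgeR adjusted p = 0.00211). Of the 6 KRT16 pseudogenes, KRT16P6 had 3, 2, 0 and 2 counts in the parental and 69, 38, 56 and 92 in the knockout tumours, and the pseudogenes together held 17.2% as many counts as KRT16 itself. Adding their counts to KRT16 gave a log2 fold change of 1.39 (edgeR adjusted p = 0.000864).

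KRT17, the type I keratin of hair follicles and of many carcinomas, lies at chr17:41619441-41624842 on the minus strand, next to KRT16. It measured 1927, 1950.2, 1342 and 1957 CPM in the parental and 2468, 1557, 2297 and 2362 CPM in the knockout tumours. Knockout replicates 1, 3 and 4 exceeded all parental tumours, but knockout replicate 2 lay below 3 of them. The difference did not pass the test (log2 fold change 0.27, 95% interval -0.08 to 0.63, edgeR adjusted p = 0.240), and the interval reaches to a rise of that upper size. Parental replicate 3 was low for KRT17, KRT8, KRT18 and KRT6A together.

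KRT16, KRT17 and KRT14, the type I keratin of basal cells, are close copies, and the sequences below show how alike they can be. The coding sequence of KRT17 was identical to that of KRT16 at 78.1% and to that of KRT14 at 83.8% of aligned bases, and KRT16 and KRT14 were identical at 87.6%. The stretch with the fewest differences lies at coding bases 259 to 318 of KRT17, 358 to 417 of KRT16 and 352 to 411 of KRT14 (GENCODE 29 transcripts, 5′ to 3′). Capitals mark the 1 base of the 60 at which the genes differ.
KRT17: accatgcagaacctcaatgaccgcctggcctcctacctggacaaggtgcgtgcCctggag
KRT16: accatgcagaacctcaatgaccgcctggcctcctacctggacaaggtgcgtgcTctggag
KRT14: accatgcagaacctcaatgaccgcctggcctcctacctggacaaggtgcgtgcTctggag
A short read within this stretch cannot separate KRT16 from KRT14, whose sequences are identical here. If it does not cover the marked base, it cannot be told from KRT17 either. Of all 50-base windows along the main transcript, 16.0% of those of KRT17, 22.01% of KRT16 and 23.8% of KRT14 occur in the transcript of another gene, against 1.79% for KRT19, 0.997% for KRT7 and 0.328% for KRT15. The shares were higher for KRT8 (32.7%) and KRT18 (31.8%), with pseudogenes as the genes that shared most windows. Counts of all their pseudogenes came to 0.487% and 0.0899% of those of the genes themselves. Reads not uniquely aligned were counted for neither, so these percentages do not measure how many reads were lost or misplaced. At 100 bases the shares were 0.322% for KRT17, 7.18% for KRT16 and 5.92% for KRT8. Over the 8 tumours KRT17 had 337811 counts and KRT16 had 3018, and the part of misplaced reads in the KRT16 counts was not tested.

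KRT6A, a type II keratin of the same activated state, lies at chr12:52487174-52493257 on the minus strand. Its values were 585, 397, 357 and 535 CPM in the parental and 433.5, 301, 513 and 587 CPM in the knockout tumours. The groups overlapped over nearly their whole range, with a log2 fold change of -0.03 (95% interval -0.48 to 0.42, edgeR adjusted p = 0.934). The sign of so small a value is not stable, and it turned to 0.01 with upper quartile scaling.

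KRT6A has 2 near copies, KRT6B and KRT6C, and their coding sequences of 1692 bases differ from that of KRT6A at 42 and 35 positions (97.5% and 97.9% identity). The stretch with the most differences between KRT6A and KRT6B, coding bases 663 to 722, is shown because reads that cover these differences can be told apart between KRT6A and KRT6B. KRT6B and KRT6C are identical over the end of the stretch, so reads from that part alone cannot separate those 2 genes. Capitals mark the bases at which the genes differ, 9 of 60 between KRT6A and KRT6B and 5 of 60 between KRT6A and KRT6C. In KRT6C only its differences from KRT6A are in capitals.
KRT6A: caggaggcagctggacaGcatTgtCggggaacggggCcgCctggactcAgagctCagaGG
KRT6B: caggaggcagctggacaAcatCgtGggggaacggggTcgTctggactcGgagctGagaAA
KRT6C: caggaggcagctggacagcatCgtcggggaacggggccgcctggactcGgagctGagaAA
Along the whole KRT6A transcript, 39.1% of 50-base windows and 18.2% of 100-base windows occur in another gene, the largest shares among the 10 keratins, so the split among these 3 genes is uncertain. KRT6B was counted at 38.2, 31.0, 30.9 and 34.0 CPM in the parental and 17.7, 14.2, 21.0 and 20.8 CPM in the knockout tumours. It fell without overlap (log2 fold change -0.86, SE 0.133, edgeR adjusted p = 0.000644). KRT6C was barely counted, at 0.496 CPM ± 0.118 and 0.847 CPM ± 0.264 (SD, n = 4 each), and was not called (log2 fold change 0.78, edgeR adjusted p = 0.0925). The 3 genes summed gave a log2 fold change of -0.07 (edgeR adjusted p = 0.832).

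KRT5, the type II keratin of basal cells, lies at chr12:52514575-52520687 on the minus strand and was close to absent in 7 of the 8 tumours. Its read counts were 7, 2, 2 and 10 in parental replicates 1 to 4 and 2, 1, 0 and 334 in the knockout replicates. Knockout replicate 4 held nearly all reads, at 15.6 CPM against 0 to 0.0934 CPM in the other knockout tumours. The gene did not pass the filter on low counts. An exact two-sided permutation test of CPM gave p = 0.971, where 4 against 4 tumours allow no p below 0.0286. The test compares group means, and knockout replicate 4 dominates their difference in every relabelling. It therefore cannot decide on the other tumours. Without knockout replicate 4 the counts of KRT5 were 21 in the parental and 3 in the knockout tumours (log2 ratio of mean CPM -2.36, exact permutation p = 0.171), against a log2 ratio of 4.01 with it. The edgeR test run without the filter called KRT5 higher (log2 fold change 3.93, adjusted p = 0.00814), a call that rests on this tumour.

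KRT14, the type I partner of KRT5, showed the same tumour on top of a difference that all knockout tumours shared. It had 7, 13, 3 and 16 counts in the parental and 174, 103, 186 and 800 counts in the knockout tumours, every knockout tumour being above every parental tumour. The difference was 5.01 ± 0.730 on the log2 scale (SE; edgeR adjusted p = 0.000433), and 3.99 without knockout replicate 4 (adjusted p = 9.53e-05). At 14.8 CPM ± 15.1 (SD, n = 4) in the knockout tumours KRT14 remained a minor keratin. KRT14 rose in all 4 knockout tumours although its usual partner KRT5 had 0 to 2 counts in 3 of them. KRT14 shares 50-base windows mostly with KRT16 and its pseudogenes, of which KRT16P6 and KRT16P2 also rose, and how far these counts are separate was not tested.

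**Figure D2:**
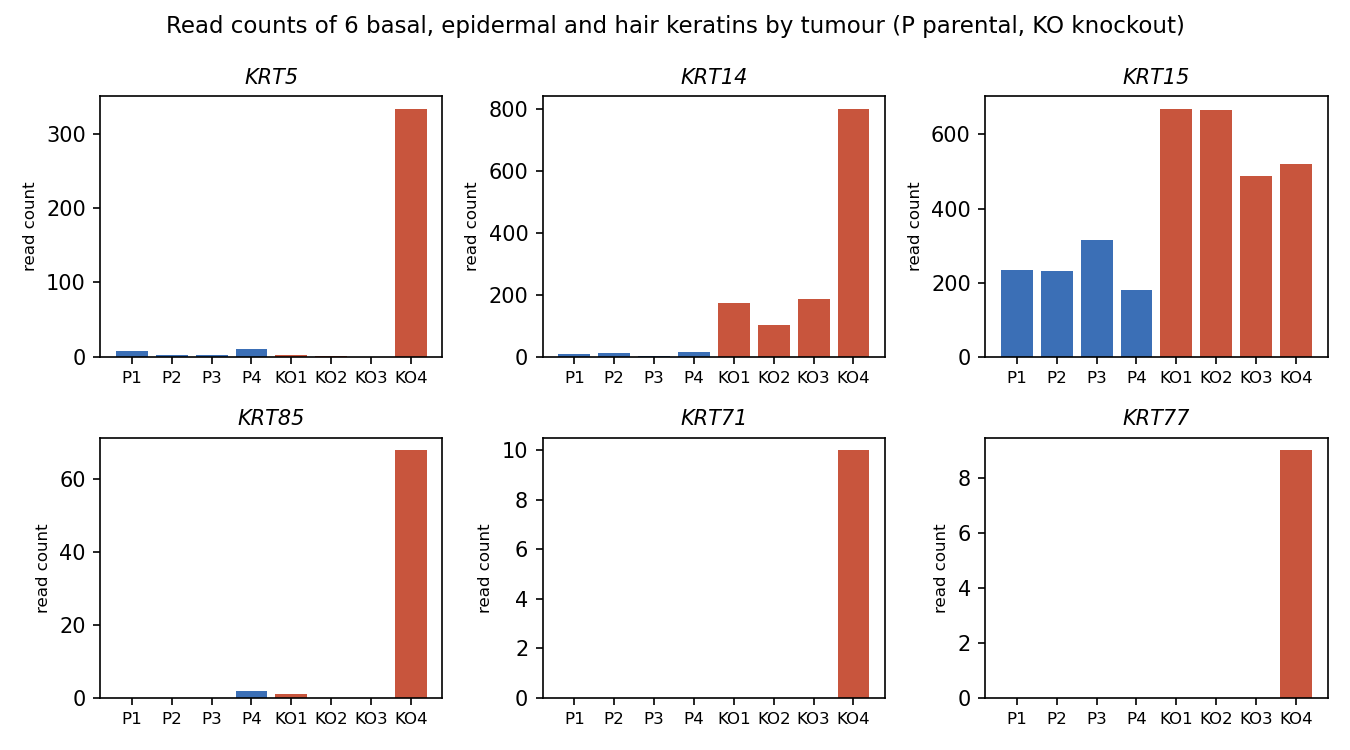
Read counts of 6 keratins in each tumour (linear axes from 0, each with its own scale; blue parental, red knockout). KRT5, KRT85, KRT71 and KRT77 are seen almost only in knockout replicate 4, KRT14 is raised in all knockout tumours and highest in replicate 4 (800 counts), and KRT15 is raised in all 4 without a peak in replicate 4.

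Other low-count keratins, picked after their values were seen, also peaked in knockout replicate 4. KRT85, a hair keratin, had 68 counts there and 0 to 2 in each of the other tumours, and KRT71 and KRT77, of the hair root sheath and of sweat ducts, had 10 and 9 counts there and 0 elsewhere. KRT9 had 10 counts there against 1 to 4, KRT3 had 9 against 0 to 2, KRT76 had 5 against 0 to 1, and KRT33A had 4 against 0. Not all keratins did so: KRT1 and KRT2 had 0 counts there, and KRT1 had 10 in knockout replicate 1. The summed level of 11 epidermis markers, a list that holds KRT10 and KRT14, was 32.2 to 34.7 CPM in parental tumours. It was 44.9, 39.4 and 46.4 CPM in knockout replicates 1 to 3, and 80.9 CPM in replicate 4. KRT10 and KRT14 made up nearly all of this sum, at 42.5 and 37.3 CPM in replicate 4. No other marker of the list exceeded 0.670 CPM (DSG1) in any tumour. LOR, which encodes the envelope protein loricrin, was at 0 in all 8. The summed level of 7 skeletal muscle markers was 15.1 CPM in knockout replicate 4 and 0.0975 to 0.467 CPM in the other knockout tumours, but parental replicate 2 had more, 33.7 CPM, with 2 counts of KRT5. The handling of mouse reads is not given in the sources used here, and whether these reads came from the host was not tested. KRT7, KRT19, KRT15 and KRT16 were called in the same directions without this tumour. In such bulk samples fewer cells of a type and less RNA per cell cannot be told apart.

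KRT80, which lies at the edge of the type II cluster at chr12:52168996-52192000 on the minus strand, was at 104, 83.9, 96.5 and 102 CPM in the parental and 123, 99.2, 121 and 96.2 CPM in the knockout tumours. The groups overlapped, with knockout replicates 1 and 3 above the rest. The log2 fold change was 0.18 (95% interval -0.05 to 0.42, edgeR adjusted p = 0.241).

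To compare the genes with each other, CPM was divided by the length of the main GENCODE transcript in kb. On this scale KRT17 was the most abundant keratin in both groups, at 1087 CPM per kb ± 183 in the parental and 1315 CPM per kb ± 252 in the knockout tumours (SD, n = 4 each). In parental tumours it was followed by KRT7 (955 CPM per kb), KRT8 (842), KRT18 (799) and KRT19 (763), levels that neighbour each other closely. In knockout tumours KRT8 (942 CPM per kb) and KRT18 (864) came next, then KRT7 (584) and KRT19 (379), so that KRT7 moved from the second place to the fourth. KRT81, a hair keratin that is also made in some carcinomas, and KRT6A came sixth and seventh in both groups, and KRT80 eighth. KRT16 reached 6.45 CPM per kb in the parental and 15.2 in the knockout tumours, and KRT15 2.16 and 5.29. The order of the close neighbours depends on the length used. With the union of all exons as length, KRT8 was sixth and KRT19 second in the parental tumours. By union or coding length, KRT7 stood at rank 3 in the parental and rank 4 in the knockout tumours. KRT17 was first by all 3 lengths tried. Reads not uniquely aligned were left out, and shared 50-base windows differ between the genes, from 0.997% for KRT7 to 16.0% for KRT17, 32.7% for KRT8 and 39.1% for KRT6A. How far this shifts the ranks, shares and ratios between genes was not tested. The KRT15 transcript is long (5237 bases for a coding length of 1368), and per kb of coding sequence KRT15 stood at 8.25 and 20.2 CPM, above KRT16 in both groups.

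As a share of the summed per-length level of all 55 protein-coding keratin genes, the 10 members made up 91.7% ± 0.752 in the parental and 93.8% ± 1.04 in the knockout tumours (SD, n = 4 each). KRT17 took 18.4% to 22.7% of the keratin sum in the parental and 25.9% to 32.0% in the knockout tumours. KRT19 took 12.8% to 17.5% in the parental and 7.75% to 8.98% in the knockout tumours, and KRT7 went from a range of 17.7% to 20.4% down to 11.8% to 13.4%. KRT8 and KRT18, whose levels were not called, took a larger share in every knockout tumour than in any parental tumour (18.7% to 21.4% against 16.0% to 16.9% for KRT8). The sum itself was 5105 CPM per kb ± 477 in the parental and 4621 ± 711 in the knockout tumours, with overlap. The ratio of the simple to the stratified members was 2.52, 2.53, 3.09 and 2.36 in the parental and 1.59, 2.097, 1.78 and 1.86 in the knockout tumours, lower in all 4 knockout tumours. KRT17 and KRT6A, neither of them called, made up nearly all of the stratified sum. Their mean levels were 1087 and 203 CPM per kb in the parental and 1315 and 199 in the knockout tumours. The ratio of type II to type I keratins was 0.913 ± 0.0784 and 0.773 ± 0.0535 (SD, n = 4 each), and its ranges overlapped.

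**Figure D3:**
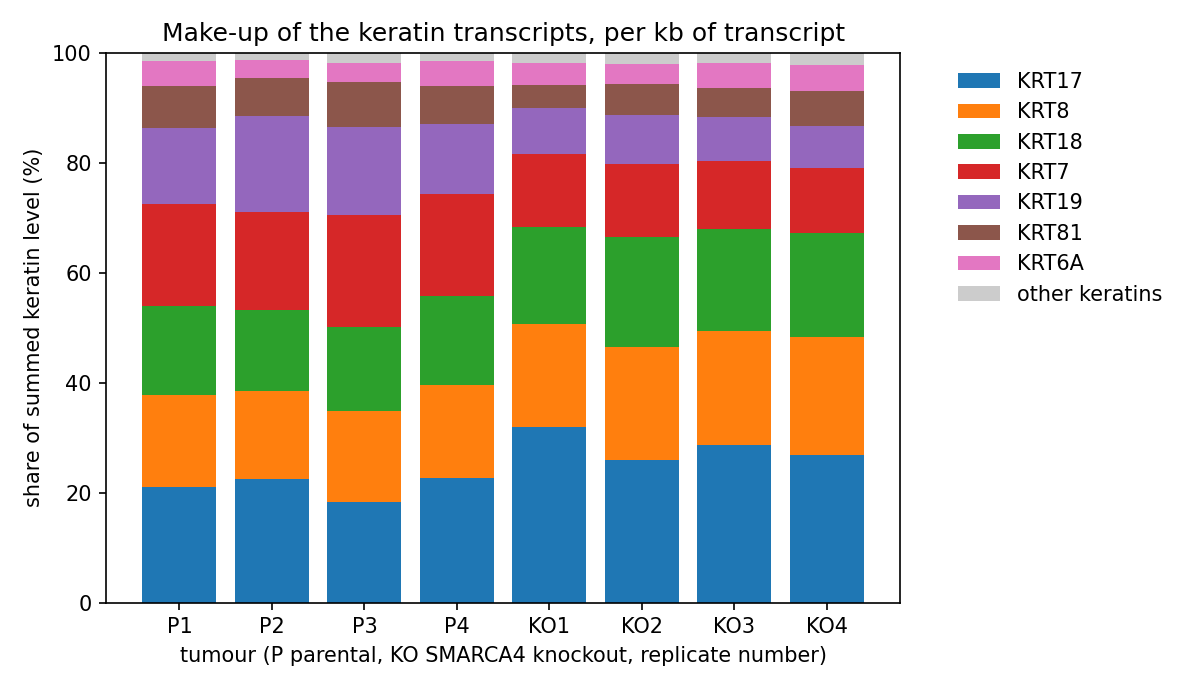
Share (%) of each keratin in the summed CPM per kb of all keratin genes, 1 bar per tumour (P parental, KO knockout, with the replicate number). KRT17 fills 25.9% to 32.0% of the knockout bars against 18.4% to 22.7% of the parental bars, KRT8 and KRT18 also fill more, and KRT7, KRT19 and KRT81 fill less.

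Usual partners were not always in step. The ratio of KRT6A to KRT16 per kb of transcript was 37.2, 19.0, 32.2 and 45.2 in the parental tumours and 12.2, 13.3, 13.1 and 13.8 in the knockout tumours, where it was lower in every tumour and varied less. The ratio of KRT17 to KRT19, both type I, was 1.44 ± 0.272 in the parental and 3.45 ± 0.399 in the knockout tumours, and that of KRT6A to KRT6B 13.7 ± 1.97 and 24.3 ± 2.84 (SD, n = 4 each), both without overlap. Over the 8 tumours log2 CPM of KRT6A varied with KRT18 (Pearson r = 0.89) and KRT8 (r = 0.85), none of them called, while KRT15 ran against KRT7 (r = -0.93), both called. Outside the keratins, the 3 genes whose log2 CPM was most like that of KRT8 among 13044 genes were MRPS18B (r = 0.97), CTNNBL1 (r = 0.96) and FTSJ3 (r = 0.96). For KRT17 they were PRKRA-AS1 (r = 0.96), S100A10 (r = 0.95) and FOCAD (r = 0.93). These are the extremes of many values over 8 tumours and are given as a description.

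The keratins that are not members were mostly too low to test. Of 21 other type II keratins 6 were tested, and 0 rose and 4 fell (median log2 fold change -0.76). Among all genes tested 13.0% were called higher and 14.1% lower. Of 23 other type I keratins 3 were tested, of which KRT14 rose and 0 fell. KRT4, the type II keratin of wet stratified epithelia such as the oesophagus, had 182, 30, 503 and 385 counts in the parental and 2, 4, 7 and 5 in the knockout tumours. This was the deepest fall of any keratin tested, at -5.84 ± 0.808 on the log2 scale (SE; edgeR adjusted p = 0.000306). KRT13, its usual type I partner, was too low to test in the fit on all 8 tumours. Its counts went the same way, from 17, 13, 10 and 21 to 6, 1, 3 and 4, with no overlap in CPM. The hair keratin KRT81 fell from 731 CPM ± 59.9 to 478 CPM ± 124 (log2 fold change -0.61, edgeR adjusted p = 0.0135) and its near copy KRT86 from 8.09 CPM ± 1.99 to 3.19 CPM ± 0.446 (-1.34, adjusted p = 0.000565; SD, n = 4 each). In KRT81, 44.6% of 50-base windows occur in another gene, so the split between the pair is uncertain. Knockout replicate 4 was the highest knockout tumour for KRT81, at 648 CPM. The KRT81 log2 fold change ran from -0.79 to -0.51 on leaving out 1 tumour. KRT10, the type I keratin of the upper epidermis, was at 32.3 CPM ± 0.975 and 37.3 CPM ± 3.67 and was not called, although its groups did not overlap (log2 fold change 0.21, edgeR adjusted p = 0.119). KRT23 had a log2 fold change of -0.69 without a call (edgeR adjusted p = 0.0797). KRT20, the keratin of gut epithelium, had 1 count in all 8 tumours.

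The 55 keratin genes lie in 2 clusters. In the type II cluster on chromosome 12 (52168996 to 52952901, with KRT18 at its end) 11 of 27 keratins were tested, and 0 rose and 5 fell: KRT7, KRT86, KRT81, KRT6B and KRT4. In the type I cluster on chromosome 17 (40654665 to 41624842) 7 of 28 were tested, and KRT15, KRT14 and KRT16 rose and KRT19 fell. Other genes within 500 kb did not lean 1 way: 4 of 22 tested were higher and 3 lower around the type II cluster (median log2 fold change 0.01), and 6 of 33 were higher and 8 lower around the type I cluster (median -0.03). Within the clusters called keratins stand beside keratins with no call, such as KRT16 (1.24) beside KRT17 (0.27) and KRT6B (-0.86) near KRT6A (-0.03). Of all genes tested 13.0% were called higher and 14.1% lower, and a difference between the clusters was not tested.

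**Figure D4:**
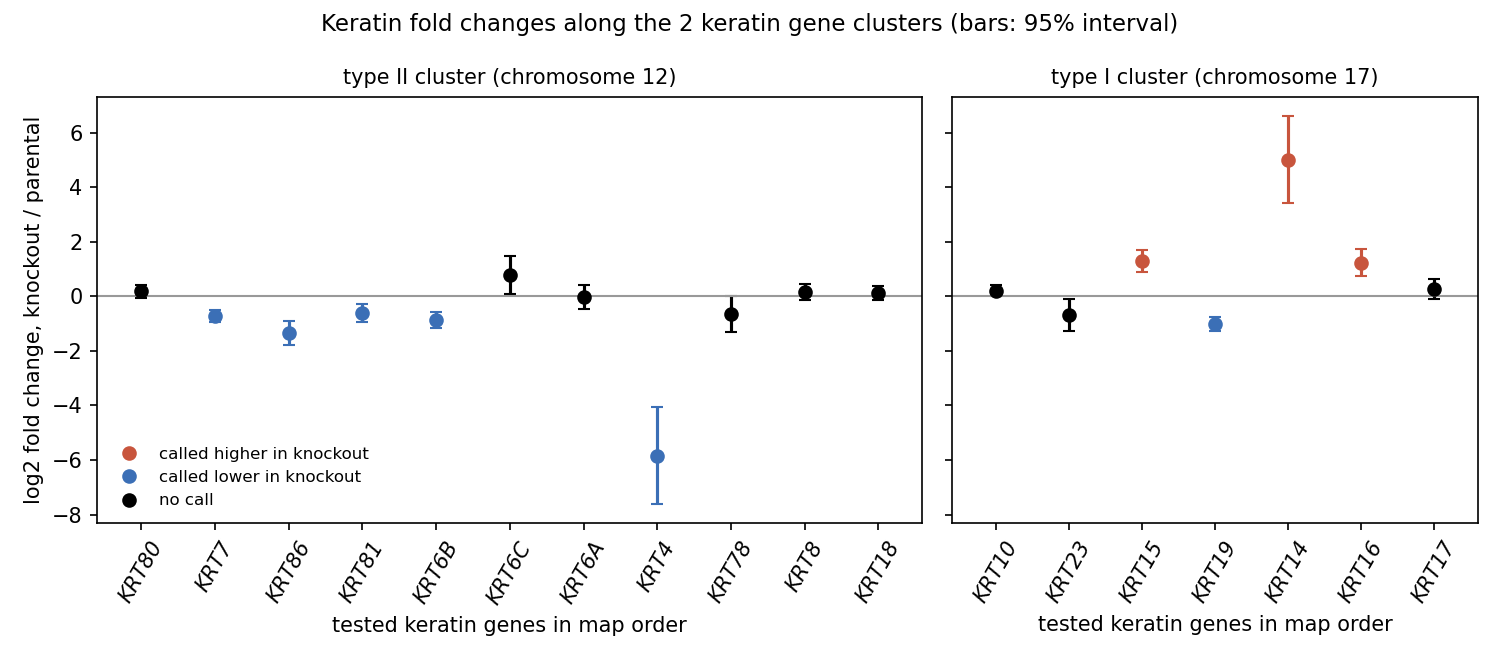
Log2 fold change, knockout over parental, of each tested keratin in its order along the type II cluster (chromosome 12, 11 genes) and the type I cluster (chromosome 17, 7 genes), with 95% intervals from the edgeR fit. Calls on chromosome 12 are all lower, down to -5.84 for KRT4, and 3 of the 4 calls on chromosome 17 are higher, up to 5.01 for KRT14.

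Keratins work with other filaments, junction proteins and regulators. The numbers called in the lists below stand beside 13.0% higher and 14.1% lower of all genes tested. Among other intermediate filaments 9 of 15 were tested, and 0 rose and 1 fell: NES, which encodes nestin, a filament of progenitor cells, from 2.55 CPM ± 0.895 to 0.562 CPM ± 0.353 (log2 fold change -2.17, edgeR adjusted p = 0.00285). VIM, the filament of mesenchymal cells, was low and uneven at 20.9 CPM ± 17.7 and 15.8 CPM ± 1.75, with no call (log2 fold change -0.40, edgeR adjusted p = 0.594). Keratins are anchored at cell junctions by desmosomes, and of 9 tested desmosome genes 1 rose and 1 fell (median log2 fold change 0.10). DSG3, the desmosomal cadherin of basal layers, rose from 20.2 CPM ± 5.34 to 36.0 CPM ± 1.65 (0.83, adjusted p = 0.00436), and PKP4, an armadillo protein of junctions, fell from 98.2 CPM ± 2.73 to 48.9 CPM ± 1.34 (-1.01, adjusted p = 3.32e-06, both edgeR). DSP, the desmosomal linker that binds keratins, had no call, at 503 CPM ± 155 and 462 CPM ± 85.7 (SD, n = 4 each throughout).

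At the base of the cell, keratins are held by hemidesmosomes through plakins, and all 9 genes of that list were tested, with 3 higher and 2 lower (median log2 fold change 0.05). COL17A1, the transmembrane collagen of hemidesmosomes, rose from 37.1 CPM ± 5.56 to 67.3 CPM ± 5.84 (0.86, edgeR adjusted p = 0.000231). ITGB4, the integrin chain that binds plectin, rose from 911 CPM ± 120 to 1364 CPM ± 292 (0.58, edgeR adjusted p = 0.0144). The plakin gene PPL, of periplakin, fell from 136 CPM ± 13.1 to 84.3 CPM ± 9.66 (-0.69, edgeR adjusted p = 0.000560; SD, n = 4 each). Of 10 proteins that bind, organise or degrade keratins 0 rose and 2 fell (median -0.19), the keratin organiser FAM83H (-0.30, edgeR adjusted p = 0.0273) and the ubiquitin ligase STUB1 (-0.35, adjusted p = 0.0342). Both calls were lost in several fits that left out 1 tumour, with adjusted p up to 0.0831 for FAM83H and 0.107 for STUB1.

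Among 16 transcription factors of epithelia 2 rose and 7 fell (median log2 fold change -0.26). ZNF750, a factor of epidermal differentiation, fell from 11.2 CPM ± 1.66 to 0.225 CPM ± 0.0913 (-5.61, edgeR adjusted p = 3.60e-07). GRHL2, which maintains junctions of simple epithelia, fell from 83.5 CPM ± 5.49 to 45.3 CPM ± 2.69 (-0.88, adjusted p = 2.23e-05), and SOX2, a factor of basal airway cells, from 26.0 CPM ± 5.27 to 9.51 CPM ± 1.41 (-1.45, adjusted p = 7.17e-05, both edgeR). TP63, the factor that defines basal cells and is named here after its value was seen, fell from 12.5 CPM ± 4.24 to 2.46 CPM ± 0.943 (-2.34, edgeR adjusted p = 0.000213), so it moved against KRT14 and KRT15. TFAP2A, another activator of epidermal keratin genes, also chosen after its value was seen, rose from 30.3 CPM ± 4.38 to 54.2 CPM ± 2.57 (0.84, edgeR adjusted p = 0.000213; SD, n = 4 each throughout).

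Of 20 genes of the cornified envelope, the protein shell of terminally differentiated keratinocytes, 9 were tested, and 2 rose and 2 fell (median log2 fold change 0.12). DMKN rose from 40.7 CPM ± 8.88 to 89.3 CPM ± 6.73 (1.13, edgeR adjusted p = 0.000146) and the cross-linking enzyme TGM1 from 1.97 CPM ± 0.494 to 4.13 CPM ± 1.04 (1.07, adjusted p = 0.00720). CSTA, a protease inhibitor of the envelope, fell from 35.6 CPM ± 15.8 to 10.9 CPM ± 3.55 (-1.70, edgeR adjusted p = 0.00290; SD, n = 4 each throughout). Among 7 tested markers of the epithelial tumour 0 rose and 3 fell, the tight junction genes CLDN4 (-0.99, edgeR adjusted p = 2.66e-05) and CLDN7 (-0.31, adjusted p = 0.0205) and the splicing factor ESRP1 (-0.52, adjusted p = 0.00120). The CLDN7 call was lost without knockout replicate 1 or 3 (adjusted p up to 0.0556).

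**Figure D5:**
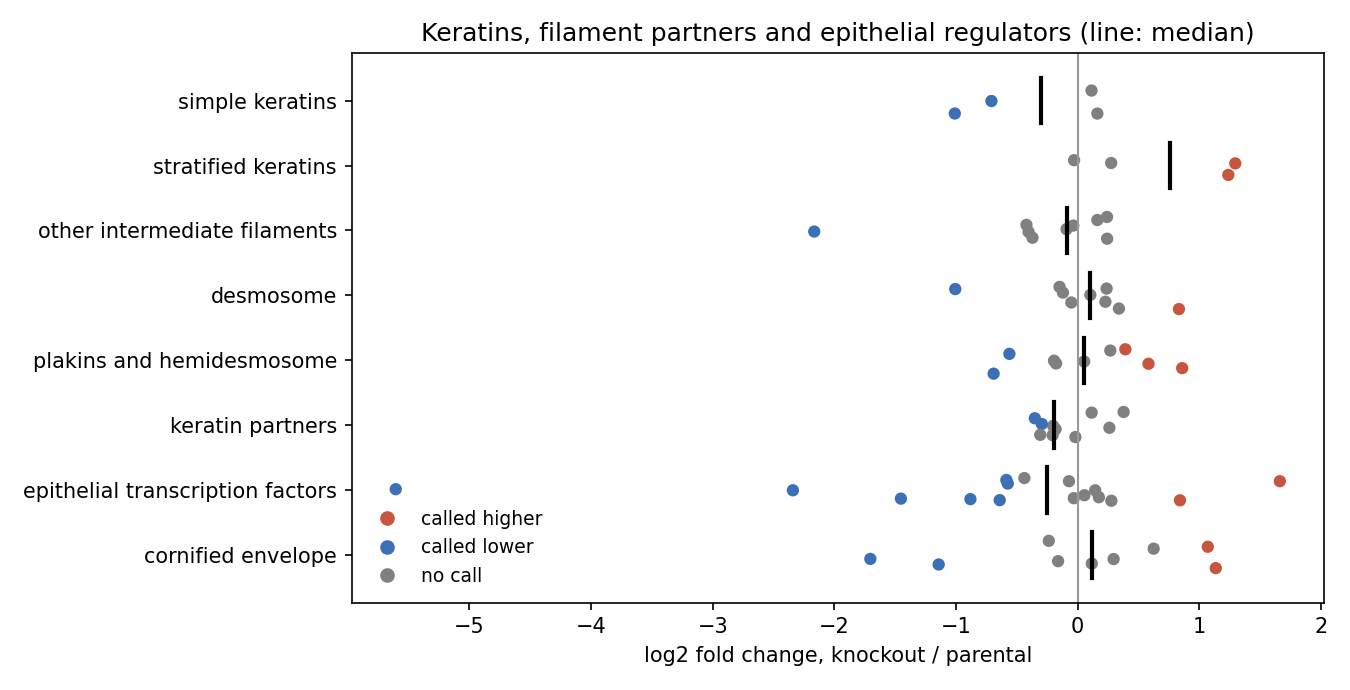
Log2 fold change, knockout over parental, of every tested gene in 8 lists (1 point per gene; red called higher, blue called lower, grey no call; black line, the list's median). The simple keratins have a median of -0.30 and the stratified keratins of 0.76, each over only 4 tested genes that spread to both sides of 0. The epithelial transcription factors reach down to -5.61 for ZNF750.

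The summed fibroblast, endothelial and leukocyte markers overlapped between the groups, unlike the epidermis markers (32.2 to 34.7 CPM against 39.4 to 80.9 CPM). That epidermis sum was nearly all KRT10 and KRT14, the only 2 of its genes with enough counts to be tested. It thus restates these keratins and does not measure epidermis apart from them. Summed over 6 fibroblast markers the level was 179 to 607 CPM in the parental and 343 to 603 CPM in the knockout tumours, with 1 of 4 tested genes called, LUM (5.00). Over 5 endothelial markers it was 7.25 to 17.999 and 8.68 to 15.2 CPM, with 1 of 2 tested genes called, VWF (-2.37), and over 6 leukocyte markers 3.15 to 28.1 and 5.04 to 11.3 CPM, with 0 of 5 called. The fibroblast sum was mostly COL1A1 (353 and 447 CPM, means of parental and knockout tumours). The endothelial sum was mostly PECAM1 (7.94 and 9.77 CPM). Overlap of such sums therefore does not show that each marker overlapped. LUM was above and VWF below in every knockout tumour, as was CDH5 (0.403 CPM and 0), which was too low to test. All other genes of these lists had overlapping groups. The part of host cells in the keratin differences was not tested.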

How the data were processed

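Total RNA of 8 tumours was sequenced, 1 library each, after column isolation and library construction with a commercial kit (per the labels' protocols). The submitters' processing notes name TopHat2 2.1.1, HTSeq 0.11.0 and hg38. The annotation, strand setting, read length and any removal of mouse reads are not given in the sources used here. The authors deposited whole-number read counts, 1 per gene symbol, with no scaling. The 5 summary lines that end each file were left out, and of all reads listed they held 6.08% to 10.4% in no feature, 3.98% to 4.31% as ambiguous and 4.52% to 8.11% as not uniquely aligned. Libraries held 19785922 to 23191698 gene counts, and no pair agreed within sampling noise (chi-square per degree of freedom at least 8.21).

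The fit was made on all genes with edgeR 4.0.16 in R 4.3.3: filterByExpr (minimum count 10, minimum total 15), TMM scaling, quasi-likelihood F-test of knockout against parental without covariates, Benjamini-Hochberg adjustment, threshold 0.05. CPM uses the TMM-scaled library size, and 95% intervals of fold changes come from the fit. KRT5, which did not pass the filter, was given by its counts and an exact two-sided permutation test. Genome positions, transcript lengths and sequences are from GENCODE 29 (GRCh38), matched by symbol. CPM per kb divides by the main transcript's length. Sequence sharing counts exact 50-base or 100-base windows found on the same strand of another gene's transcripts.

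Replicate numbers were the same in both groups, but same-numbered tumours did not deviate together (correlations -0.04, -0.02, -0.19 and 0.09 for numbers 1 to 4), so the tumours were not paired. The members and the gene lists were chosen with earlier results of these data known. Besides SMARCA4 and the members, the genes named are KRT6B, KRT6C, KRT10, KRT13, KRT14, KRT20, KRT23, KRT81, KRT86 and VIM, the 3 called genes of smallest p in each list, and the 3 genes most like KRT8 and KRT17 (average log2 CPM 1 or higher). Other keratins with few counts, the KRT16 pseudogenes, DSP, EPCAM, CDH1, NKX2-1, LOR, COL1A1, PECAM1, CDH5, TP63 and TFAP2A were named after their values were seen. Alternatives were RLE and upper quartile scaling, 2 other filters, the replicate number as a block, DESeq2 1.42.0, limma-voom (limma 3.58.1), sums with pseudogenes or near copies, and leaving out each tumour.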

Additional observations from a re-analysis of the deposited data

Results flagged for a closer look

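Among 20 sets of 4 tumours (each of the 10 keratins in each group), 3 held a tumour far from the other 3 by Dixon's test at the 95% level, where chance gives about 1 in 20. KRT7 in knockout replicate 2 was at 851 CPM, below the 1068 to 1097 CPM of the other knockout tumours. KRT17 in parental replicate 3 was at 1342 CPM, below the 1927 to 1957 CPM of the other parental tumours. KRT5 in knockout replicate 4 was at 15.6 CPM, against 0 to 0.0934 CPM in the other knockout tumours.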

How the results depend on the processing

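The 4 called keratins kept their direction and their call in every alternative run, 5 being called without a filter on low counts, which added KRT5. Leaving out each tumour in turn gave log2 fold changes of -0.74 to -0.63 for KRT7, -1.07 to -0.91 for KRT19, 1.14 to 1.42 for KRT15 and 1.12 to 1.45 for KRT16. With the replicate number as a block they were -0.72, -1.004, 1.31 and 1.25, and 3871 genes were called in all. Calls over all genes ran from 3501 (without knockout replicate 1) to 4721 (without parental replicate 2) on leaving out 1 tumour, and up to 4902 without the filter. KRT6A changed sign, to 0.0146 with upper quartile scaling and within -0.17 to 0.13 on leaving out 1 tumour, never with a call. KRT5 was called without the filter (3.93) and ran from -2.36 (without knockout replicate 4) to 4.43 on leaving out 1 tumour, since 334 of its reads lie in that tumour. VIM turned to 0.00016 with the replicate block and 0.0720 with limma-voom, and ran from -0.74 to 0.27 on leaving out 1 tumour, the highest without parental replicate 2. KRT23 was called lower without the filter (-0.71, adjusted p = 0.0325), with DESeq2 (-0.70, adjusted p = 0.0446) and in edgeR without parental replicate 2 (-0.83, adjusted p = 0.0315), and the cause was not tested. The number of called genes moved by over 1.5 times in 9 short lists: other type II keratins 4 to 7 and endothelial markers 1 to 3 without the filter, other type I keratins 1 to 2 or 4, other intermediate filaments 1 to 2, desmosome 2 to 4 without knockout replicate 4, plakins 5 to 3 with the block or without knockout replicate 1 or 3, keratin partners 2 to 0, fibroblast markers 1 to 2, and leukocyte markers 0 to 1. KRT13 and KRT5 did not pass the filter on low counts at this depth.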
